A study of Homo sapiens with 7 samples.

Results

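The 10 genes described here encode enzymes of glycolysis and of lactate formation, and they were taken by symbol from the lists of polyadenylation sites (PASs) of 3′READS libraries. HK2, GPI, TPI1, GAPDH, PGK1, PGAM1, ENO1, LDHA and LDHB had at least 1 PAS on the sense strand in each of the 3 tables of reads, so that 9 of the 10 were measured, among 16044 genes in all. ALDOA was not analysed here, since no sense PAS of the tables stood under its symbol or gene ID. The study asked which genes and which PASs depend on each of the nuclear poly(A) polymerases (PAPs).

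HEK293 cells, a line of human embryonic kidney origin, received either siRNAs that did not target a PAP (siCtrl) or siRNAs to Star-PAP (gene TUT1), PAPα (PAPOLA), PAPγ (PAPOLG), or PAPα and PAPγ together (double KD). Of the 7 libraries, siCtrl, siStar-PAP, siPAPα and siPAPγ made up batch 1, a further siCtrl and siStar-PAP pair made up batch 2, and the labels give the double KD no batch. Batch 2 was made with 3′READS+, a later form of the protocol. All cells were of this 1 line, each KD was a partial loss by transient siRNA, and the labels do not say whether the 2 batches came from separate cultures. Without a second library, the siPAPα, siPAPγ and double KD comparisons have no replicate check, and each uses the same siCtrl library of batch 1 as siStar-PAP does.

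Glycolysis splits glucose into pyruvate in the cytosol, and lactate dehydrogenase then turns pyruvate into lactate or back. HK2 phosphorylates glucose, GPI isomerizes glucose-6-phosphate to fructose-6-phosphate, and TPI1 interconverts the triose phosphates that aldolase releases. GAPDH oxidizes glyceraldehyde-3-phosphate, PGK1 transfers a phosphate to ADP, PGAM1 shifts the remaining phosphate, and ENO1 makes phosphoenolpyruvate; LDHA and LDHB are the muscle-type and heart-type subunits of lactate dehydrogenase. Several of these mRNAs are among the most abundant of proliferating cells. GAPDH is a customary reference gene, and it served as such in the qRT-PCR assays of the study.

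Most of the enzyme mRNAs ended at a single dominant PAS with a canonical poly(A) signal. In batch 1, 8 of the 9 main PASs, those with most reads of their gene, had AAUAAA within the 40 nt up to the cleavage site on the transcript strand, and that of PGAM1 had AUUAAA. Over the main PASs of 15467 genes, 62.2% had AAUAAA and 16.2% had AUUAAA with no AAUAAA. The 30 nt below, in the hg19 (GRCh37) genome and read 5′ to 3′ on the strand of the gene, end at the main PAS, except that the PGAM1 window ends 1 nt before it so that it holds the whole signal. Capitals mark the poly(A) signal. These sites carry most of the reads behind the levels of the 8 genes, and HK2, with few reads spread over 8 PASs in batch 1, is not shown.
GPI, chr19:34891204-34891233, plus strand: catgtagaaaAATAAAgatgccacggagga
TPI1, chr12:6979963-6979992, plus strand: cccatgtgagggAATAAAcctggcactagg
GAPDH, chr12:6647508-6647537, plus strand: accatcAATAAAgtaccctgtgctcaacca
PGK1, chrX:77381741-77381770, plus strand: aaacAATAAAagtgtccattgaaaccgtga
PGAM1, chr10:99192844-99192873, plus strand: ATTAAAaaagtatagtatatataatacaaa
ENO1, chr1:8921061-8921090, minus strand: aaAATAAAaagcctcagtgacccatgagaa
LDHA, chr11:18429365-18429394, plus strand: ctaaaacccccAATAAAccttgaacagtga
LDHB, chr12:21788276-21788305, minus strand: tgaacaAATAAAattaactattgtagtgtg

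All of these main PASs lay in an annotated UTR of a protein-coding transcript of their gene in the GENCODE annotation of that build. Those of GAPDH, GPI, ENO1, LDHA and LDHB were 0 nt from an annotated transcript end, that of PGK1 was 6 nt from one, that of TPI1 111 nt and that of PGAM1 327 nt. The AUA trimer was searched on the transcript strand in the stretch that starts 100 nt and ends 41 nt before the PAS, a region examined in the study for Star-PAP. It was present at 2 of the 9 main PASs, with 3 copies at LDHA and 1 at LDHB, against 54.0% of the main PASs of all genes. GC content of that region ran from 30% at LDHA to 65% at GAPDH, with ENO1 at 61.7%, TPI1 at 63.3% and a median of 38.3% over all genes.

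Per library, the tables held 2347192 reads at the lowest, for siStar-PAP of batch 2, and 16191098 at the highest, for siPAPα, which is 54.4 to 70.5% of the PAS supporting (PASS) reads of each library. PASS reads are uniquely mapped reads with untemplated Ts from the poly(A) tail. Levels are RPM, the reads of a gene per 1000000 PASS reads of the library, and because each mRNA yields its read at its 3′ end, levels of different genes were compared without division by length. Intervals below are at the 95% level, and they cover counting error only, since the reads carry no molecular identifiers. TUT1 had 83 reads in siCtrl and 2 with siStar-PAP, and PAPOLA had 71 in siCtrl, 12 with siPAPα and 8 with the double KD. Of the PAPs not targeted, PAPOLA was 0.428-fold siCtrl in RPM with siStar-PAP (interval 0.287 to 0.632) and 0.898-fold in batch 2 (0.558 to 1.43). PAPOLG was 3.87-fold with siStar-PAP (1.47 to 12.8), 3.28-fold with siPAPα (1.28 to 10.7) and 2.48-fold in batch 2 (1.16 to 5.6). The PAPOLG ratios rest on 5 and 11 siCtrl reads. TUT1 in the other KDs and PAPOLA with siPAPγ had intervals that included 1. PAPOLG had 5 reads in siCtrl and 15 with siPAPγ, a ratio of 2.32 in RPM (interval 0.801 to 8.15), and TUT1 had 6 and 4 in batch 2, so that at this depth the reads do not check the siPAPγ label nor that of siStar-PAP in batch 2. Of the markers of HEK293 cells, 7 of 7 were listed, from KRT18 at 783 to 3927 RPM down to PAX2 at 0 to 2.77 RPM. Of 9 markers of other cell types, only LUM was listed, with 0 to 6 reads.

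GAPDH was the leading enzyme mRNA of batch 1 and was below ENO1, LDHB, GPI and PGK1 in siCtrl of batch 2. It stood at 2862 RPM in siCtrl, 3780 with siStar-PAP, 2630 with siPAPα, 2159 with siPAPγ and 2020 with the double KD, and at 60.4 RPM in siCtrl and 86.1 with siStar-PAP of batch 2. The 5 libraries outside batch 2 do not overlap with the pair of batch 2. Its rank by RPM within a library was between 21 and 30 in those 5 and was 1447 and 967 in batch 2.

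ENO1 stood the other way round. Its level was 894 RPM in siCtrl, 904 with siStar-PAP, 1286 with siPAPα, 1041 with siPAPγ and 1054 with the double KD, against 4779 and 7101 RPM in siCtrl and siStar-PAP of batch 2. In batch 2 it ranked 8 and 6 among all genes and held 90.8% and 92.2% of the reads of the enzymes, where GAPDH held 1.15% and 1.12%. In siCtrl of batch 1 those shares were 17.2% for ENO1 and 55.0% for GAPDH. The enzymes together held 0.738% of the reads in the table of siCtrl in batch 1 and 0.966% in batch 2.

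The upper part of the pathway showed a wide range of levels. HK2 had 15 reads in siCtrl, 5 with siStar-PAP, 23 with siPAPα, 6 with siPAPγ, 0 with the double KD, and 3 and 5 reads in siCtrl and siStar-PAP of batch 2. This is 1.31 RPM or less in every library. With 3 reads taken as the limit for a count of 0, the double KD allows up to 0.160 RPM. That limit is 8.22-fold lower than the 15 reads of siCtrl in RPM, with no counting error on those 15 reads. The exact counting interval of HK2 with the double KD is wider and reaches 0.196 RPM. The interval of its log2 ratio to siCtrl reaches up to -2.56. GPI was at 656 RPM in siCtrl, 698 with siStar-PAP, 424 with siPAPα, 590 with siPAPγ and 609 with the double KD, and at 98.8 and 93.2 RPM in batch 2. TPI1 was at 148 RPM in siCtrl, 110 with siStar-PAP, 197 with siPAPα, 134 with siPAPγ and 153 with the double KD, and at 56.6 and 70.1 RPM in batch 2. GPI and TPI1 thus were lower in both libraries of batch 2 than in all of the others.

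PGK1 differed least between the batches. It had 97.6 RPM in siCtrl, 72.7 with siStar-PAP, 91.1 with siPAPα, 85.2 with siPAPγ, 79.8 with the double KD, and 70.7 and 79.1 RPM in siCtrl and siStar-PAP of batch 2, so that the ranges of the batches overlap. The siCtrl column in the table of the double KD, which lists other minor PASs of PGK1, gave 87.9 RPM. PGAM1 was low throughout, with 6.83, 7.92, 11.8, 9.46 and 9.10 RPM in the same order, and with 4 reads (0.792 RPM) and 24 reads (5.65 RPM) in batch 2.

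The lactate dehydrogenase subunits parted between the batches. LDHA had 207 RPM in siCtrl, 233 with siStar-PAP, 297 with siPAPα, 181 with siPAPγ and 201 with the double KD, and 7.33 and 18.6 RPM in siCtrl and siStar-PAP of batch 2. LDHB had 328 RPM in siCtrl, 283 with siStar-PAP, 527 with siPAPα, 398 with siPAPγ and 421 with the double KD, and 187 and 248 RPM in batch 2. LDHA thus lay far outside its range of the other libraries in batch 2, and LDHB only just below its own. In siCtrl of batch 1 the order of levels was GAPDH, ENO1, GPI, LDHB, LDHA, TPI1, PGK1, PGAM1 and HK2, and the counting intervals of neighbours in that order did not overlap. PGAM1, TPI1, PGK1, ENO1, LDHA, LDHB and GAPDH have processed pseudogenes or close paralogs, and only uniquely mapped reads were counted, so their levels may leave out reads.

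**Figure D1:**
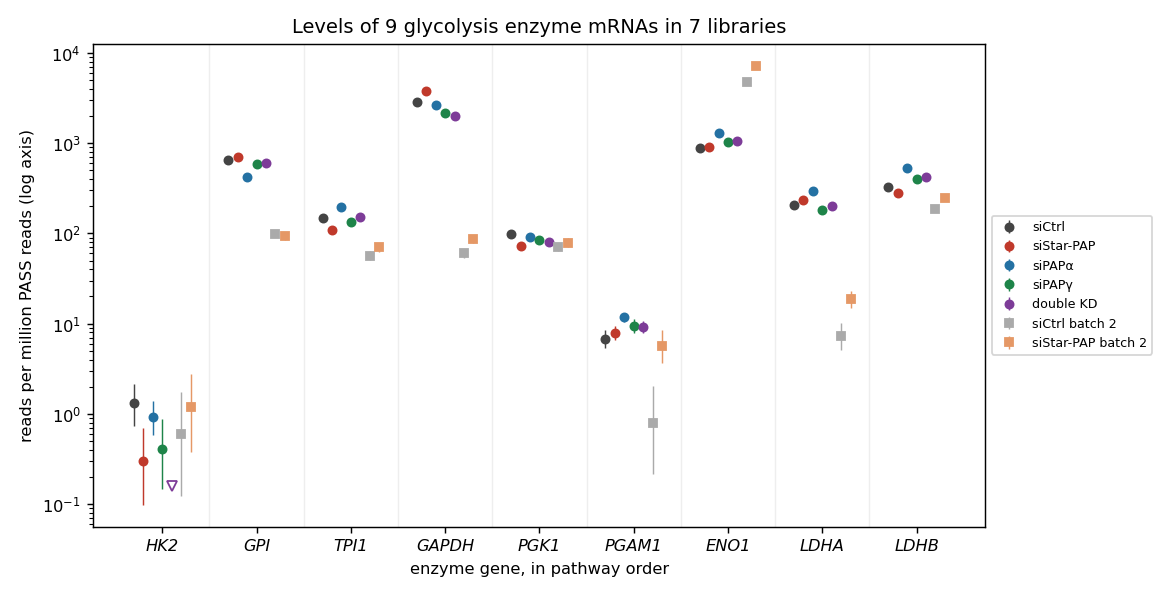
Levels in RPM on a log axis for 9 enzyme genes in pathway order, with 1 point per library (circles, batch 1 and the double KD; squares, batch 2) and exact Poisson 95% intervals; the open triangle marks the limit of 3 reads for HK2 with the double KD, where it had 0 reads. GAPDH lies between 2020 and 3780 RPM outside batch 2 and at 60.4 and 86.1 RPM in it, ENO1 lies at 4779 and 7101 RPM there, and PGK1 lies between 70.7 and 97.6 RPM.

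GAPDH and LDHA had 2 of the lowest ratios between the siCtrl libraries of the batches. GAPDH was 47.4-fold lower in siCtrl of batch 2 than in that of batch 1, LDHA 28.3-fold lower, PGAM1 8.62-fold and GPI 6.64-fold lower, whereas ENO1 was 5.34-fold higher. Over 9570 genes, the log2 ratio of batch 2 to batch 1 had a median of -0.39, with the 5th and 95th percentiles at -3.65 and 3.25, and GAPDH at -5.57 and LDHA at -4.82 lay below that range. The batches differ in protocol, and protocol and cell batch cannot be told apart. Levels in batch 1 and batch 2 are therefore not set against each other as levels of the same cells.

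LDHA also ended elsewhere in batch 2. Its PAS at chr11:18429394 held 2267 of 2370 siCtrl reads in batch 1, and 0 of 37 siCtrl reads in batch 2, which allows a share of up to 8.11% by the same limit of 3 reads. The PAS at chr11:18428939, upstream in the same 3′ UTR, held 103 of the 2370 and 34 of the 37. Such shifts were common: of 6410 genes with at least 30 siCtrl reads in both batches, 27.6% had another main PAS in batch 2, and 12.9% had 0 reads at the exact main PAS of batch 1. GAPDH had the same single PAS listed in both.

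No enzyme passed the 2-fold rule in any KD of batch 1 or in the double KD. By this rule, which follows the cutoff of the study for PAS transcripts, a gene is called when it has over 50 reads in the 2 libraries together and its RPM differs more than 2-fold from siCtrl. HK2, at 0.230-fold siCtrl in siStar-PAP and 0.309-fold in siPAPγ, had too few reads for the rule. Of the 8 enzymes with over 50 reads, 0 were called in siStar-PAP, where 26.2% of 10079 genes were called lower and 4.44% higher. They were 0 of 8 with siPAPα, where 22.1% of genes were lower and 8.5% higher. In siPAPγ they were again 0 of 8, beside 20.7% of genes lower and 5.67% higher, and in the double KD 0 of 8, beside 26.5% lower and 6.98% higher. In batch 2, LDHA was the 1 of 7 enzymes called in siStar-PAP, with 11.7% of genes lower and 3.55% higher. With 1 library a condition these calls have no test, and they compare libraries, not conditions. In bulk RNA, a lower level in all cells and a loss of it in some cells cannot be told apart.

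The enzymes lay above the median gene in nearly every comparison. The median log2 ratio to siCtrl over all genes was -0.45 with siStar-PAP, -0.26 with siPAPα, -0.33 with siPAPγ, -0.38 with the double KD and -0.16 with siStar-PAP of batch 2. That of the enzymes was 0.05, 0.47, -0.15, -0.01 and 0.41 in the same order. Of the 8 enzymes with over 50 reads, 8 lay above the median of all genes in siStar-PAP and 7 in each of siPAPα, siPAPγ and the double KD, as did 7 of 7 in batch 2. This position does not depend on the scaling between libraries, while the sign of a log2 ratio does. The exceptions were GPI in siPAPα and GAPDH in siPAPγ and in the double KD. Abundant genes as a whole lay higher too: the tenth of genes with the highest mean RPM, which held GPI, TPI1, GAPDH, ENO1, LDHA and LDHB in batch 1, had median log2 ratios of -0.16, -0.15, -0.27 and -0.28 with siStar-PAP, siPAPα, siPAPγ and the double KD. The other genes had -0.48, -0.27, -0.34 and -0.40, and the part of abundance in the position of the enzymes was not tested.

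Scaling moved the split of all genes. With edgeR's TMM factors in place of PASS totals, 1295 genes were more than 2-fold lower and 1173 higher in siStar-PAP, against 2637 and 448, and the numbers were 1492 and 1617 with siPAPα, 1118 and 1151 with siPAPγ, 1502 and 1478 with the double KD, and 589 and 426 in batch 2. The median of all genes was then 0.03, 0.08, 0.05, 0.05 and 0.01 in that order. Directions below are therefore given by PASS totals and named where another scaling turns them.

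In siStar-PAP of batch 1, GAPDH was 1.32-fold siCtrl (log2 0.40, interval 0.38 to 0.42) and had the highest ratio of the enzymes. LDHA at 0.17 and GPI at 0.09 also had intervals above 0, and those of PGAM1 at 0.21 and ENO1 at 0.02 included 0. TPI1 and PGK1 were both at -0.42 and LDHB at -0.21, and these 3 turned above 0 with TMM, DESeq2 or median scaling. GAPDH, LDHA, GPI, PGAM1 and ENO1 stayed above 0 under all 5 scalings.

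In siPAPα the order was different. PGAM1 was at log2 0.79 (interval 0.43 to 1.17), LDHB at 0.68, ENO1 and LDHA both at 0.52 and TPI1 at 0.42, each with its interval above 0 under PASS totals and its value above 0 under all 5 scalings. GPI was at -0.63 (interval -0.67 to -0.59), or 0.647-fold siCtrl, and was below 0 under all 5 scalings. GAPDH at -0.12 and PGK1 at -0.10 turned above 0 under the other 4. Under TMM scaling PGAM1 (1.13) and LDHB (1.02) passed the 2-fold rule.

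The siPAPγ and double KD libraries shared the high values of PGAM1, LDHB and ENO1 and the low value of GAPDH, each against the same siCtrl library. PGAM1 was at log2 0.47 with siPAPγ and 0.41 with the double KD, LDHB at 0.28 and 0.36, and ENO1 at 0.22 and 0.24. GAPDH was at -0.41 and -0.50, below 0 under all 5 scalings in both. LDHA at -0.19 and -0.07, PGK1 at -0.20 and -0.14 and GPI at -0.15 and -0.11 turned above 0 when scaled by the table totals or by the other 3 methods. TPI1 was at -0.14 and 0.05, and only the first of these values turned.

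In siStar-PAP of batch 2, LDHA was 2.54-fold its siCtrl (log2 1.34, interval 0.76 to 1.95), from 37 and 79 reads. ENO1 was at 0.57, GAPDH at 0.51, LDHB at 0.41, TPI1 at 0.31 and PGK1 at 0.16, the last with an interval that included 0, and all 6 stayed above 0 under 5 scalings. GPI was at -0.08 with an interval that included 0, and was above 0 with TMM, DESeq2 or median scaling. PGAM1, at 4 and 24 reads, was under the minimum of 50 reads.

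**Figure D2:**
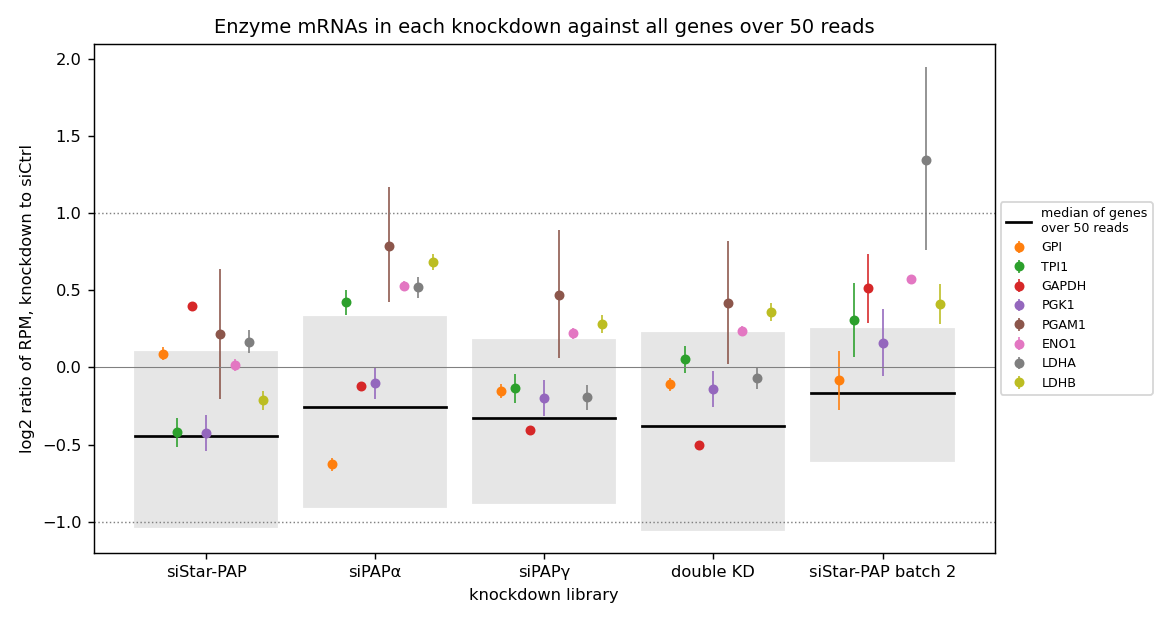
Log2 ratio of RPM to siCtrl for each enzyme with over 50 reads in the comparison (points, exact 95% counting intervals) in 5 comparisons, where the black line and grey box give the median and the middle 50% of all genes over 50 reads and dotted lines mark a 2-fold difference. Most of these enzymes lie above the black line in each comparison, and LDHA in batch 2, at 1.34, is the 1 point past a dotted line; HK2, and PGAM1 in batch 2, had too few reads to be shown.

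Fitted over both batches, no enzyme passed the test. edgeR's quasi-likelihood test with batch as a block, which has 1 residual degree of freedom, called 128 of 11878 genes lower (1.08%) and 146 higher (1.23%) with siStar-PAP at an adjusted p below 0.05, and 0 of the 9 enzymes. At an unadjusted p below 0.05 there were 3 of the 9 enzymes, beside 14.9% of all genes. DESeq2 with the same design called 1, GAPDH, as higher, beside 0.536% of 15484 genes called lower and 1.29% higher. The 15484 include genes to which DESeq2 gave no adjusted p and which could not be called, so these shares are lower limits. HK2 and PGAM1 were among such genes. GAPDH had a log2 difference of 0.81 ± 0.37 (SE) with an edgeR adjusted p of 0.306, and a DESeq2 adjusted p of 0.0452. LDHA had 1.04 ± 0.36 (edgeR adjusted p = 0.143) and PGAM1 had 1.51 ± 0.61 (edgeR adjusted p = 0.226). ENO1 was at 0.64, LDHB at 0.45, GPI at 0.36, TPI1 at 0.29, PGK1 at 0.22 and HK2 at -0.37, with a median of 0.45 over the 9 and -0.0024 over all genes. With PASS totals in place of TMM the median of all genes was -0.37 and that of the enzymes 0.10.

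The balance between enzymes within a library does not depend on depth or scaling. There were 0.312 ENO1 reads per GAPDH read in siCtrl (interval 0.305 to 0.319), 0.239 with siStar-PAP (0.235 to 0.243), 0.489 with siPAPα, 0.482 with siPAPγ and 0.522 with the double KD. In batch 2 the ratio was 79.1 (70.7 to 88.8) in siCtrl and 82.4 (74.4 to 91.6) with siStar-PAP. In batch 1 the siStar-PAP value was thus below siCtrl and the others above it, by more than counting error, and in batch 2 the intervals overlap. Against GAPDH, the reference gene, LDHB, TPI1, LDHA, PGK1 and PGAM1 had the order of ENO1 outside batch 2, below siCtrl in siStar-PAP and above it in the other KDs. PGK1 with siPAPα and PGAM1 with siStar-PAP had intervals that overlap that of siCtrl, and GPI was below siCtrl in siPAPα as well. All share GAPDH as divisor, which by PASS totals was above siCtrl in siStar-PAP and below it in the other KDs, so they are not separate results. LDHB had 0.115 reads per GAPDH read in siCtrl, 0.0749 with siStar-PAP, 0.200 with siPAPα, 0.184 with siPAPγ and 0.208 with the double KD. TPI1 had 0.0515, 0.0291, 0.0751, 0.0621 and 0.0758 in the same order, and GPI had 0.229, 0.185, 0.161, 0.273 and 0.301.

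The ratio of the lactate dehydrogenase subunits differed between siCtrl and each KD of batch 1. There were 0.632 LDHA reads per LDHB read in siCtrl (0.600 to 0.666), 0.822 with siStar-PAP (0.788 to 0.858), 0.564 with siPAPα (0.548 to 0.581) and 0.455 with siPAPγ (0.435 to 0.477). The double KD had 0.478 (0.460 to 0.497), where the siCtrl column of its own table gave 0.643 because that table lists more PASs of LDHA. In batch 2 the ratio was 0.0393 in siCtrl (0.0275 to 0.0545) and 0.0749 with siStar-PAP (0.0588 to 0.0942), again higher in siStar-PAP with intervals that do not overlap. Set against its siCtrl, siStar-PAP was above in both batches and the siPAPα, siPAPγ and double KD libraries were below. The LDHA reads lay mainly at chr11:18429394 in batch 1 and at chr11:18428939 in batch 2, so the ratios of the batches rest on different sites. Of the 79 LDHA reads with siStar-PAP of batch 2, 6 lay at chr11:18429394 and 9 at chr11:18429762, where its siCtrl had 0. No test over replicates was made of these ratios.

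**Figure D3:**
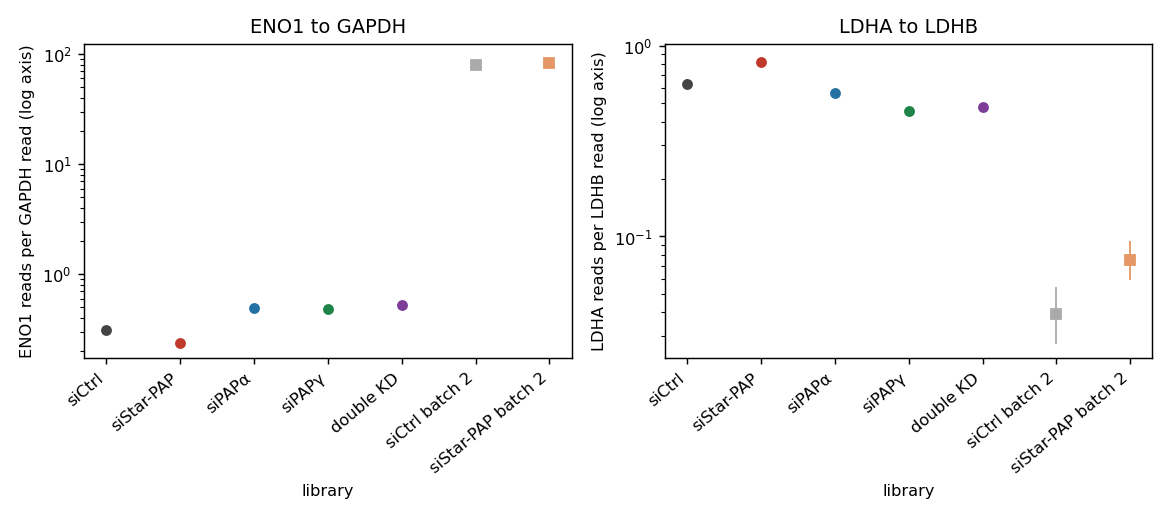
Reads of ENO1 per read of GAPDH (left) and of LDHA per read of LDHB (right) in each library, on log axes, with exact binomial 95% intervals that are often smaller than the points. ENO1 per GAPDH lies between 0.239 and 0.522 outside batch 2 and at 79.1 and 82.4 in it, and LDHA per LDHB lies between 0.455 and 0.822 outside batch 2 and at 0.0393 and 0.0749 in it.

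The enzymes offered few PASs for a change of site. GAPDH, ENO1 and LDHB had 1 PAS in each of the 3 tables and TPI1 had 1 in the table of batch 1, where 29.5% of all genes had 1. In that table GPI had 3 PASs, LDHA 2, PGK1 3, PGAM1 5 and HK2 8, and for GPI, LDHA, PGK1 and HK2 all of them lay in the 3′-most exon or beyond it. PAS use, the share of a PAS in the reads of its gene, was compared between a KD library and siCtrl by Fisher's exact test (two-sided), with p-values adjusted over all PASs tested by the Benjamini-Hochberg method. The sites that the results turn on, besides the main ones, are shown with their signals in capitals.
GPI, first last-exon PAS, chr19:34890929-34890958, plus strand: cagagtccAATAAActcgtgctcatctgca
GPI, last PAS, chr19:34893289-34893318, plus strand: gcttcAATAAAtctgtgcttttgttccttc
LDHA, upstream PAS, chr11:18428910-18428939, plus strand: tgatctgtgATTAAAgcagtaatattttaa
PGK1, last PAS, chrX:77387843-77387872, plus strand: ataaagATTAAAcatatctagtacaaggtt

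Calls in PAS use were frequent over all PASs, and the counts of the enzymes stand beside that share. In siStar-PAP 6 of 11 enzyme PASs were called, against 45.1% of all PASs tested, and 8 of 11 with siPAPα, against 47.7%. In siPAPγ the count was 4 of 11, against 36.4%, in the double KD 4 of 12, against 47.6%, and in siStar-PAP of batch 2 it was 1 of 9, against 13.2%. The shifts were small. With a further minimum of 10 percentage points, the enzymes had 0 with siStar-PAP (31.2% of all PASs), 1 with siPAPα (32.4%), 0 with siPAPγ (24.7%), 0 with the double KD (31.1%) and 0 in batch 2 (10.1%). These tests compare the reads of 2 libraries, not conditions.

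GPI used its main PAS less in the 3 single KDs of batch 1. The main PAS held 91.1% of the GPI reads in siCtrl, 89.5% with siStar-PAP, 87.5% with siPAPα, 84.1% with siPAPγ and 91.7% with the double KD, and all but the last passed the test. The first last-exon PAS held 5.60% in siCtrl and 11.6% with siPAPγ (adjusted p = 1.7e-39, Fisher's exact test), with 6.45%, 6.46% and 4.46% with siStar-PAP, siPAPα and the double KD. In batch 2 it held 2 of 499 siCtrl reads and 6 of 396 siStar-PAP reads, and the main PAS held 80.8% and 73.5% (adjusted p = 0.0664, Fisher's exact test).

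The last PAS of GPI, at the end of the annotated gene, had a larger share in siStar-PAP of both batches. Its use was 3.31% in siCtrl and 4.01% with siStar-PAP of batch 1 (adjusted p = 0.033, Fisher's exact test), and 14.8% and 22.2% in batch 2 (adjusted p = 0.0415, Fisher's exact test), the 1 enzyme PAS called there. It was also called in siPAPα, at 6.05%, and in siPAPγ, at 4.31%, and stood at 3.85% with the double KD (adjusted p = 0.104, Fisher's exact test). Among the libraries of batch 1, it held over 5% of the gene, the study's limit for keeping a PAS, only with siPAPα.

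LDHA ended more often at its upstream PAS, 455 nt before the main PAS, in siStar-PAP of batch 1 and less often in siPAPα and the double KD. The upstream PAS held 4.35% of the LDHA reads in siCtrl, 6.10% with siStar-PAP (adjusted p = 0.0099, Fisher's exact test), 2.14% with siPAPα (adjusted p = 3.9e-07, Fisher's exact test) and 3.17% with siPAPγ (adjusted p = 0.0762, Fisher's exact test). Among the libraries of batch 1, the upstream PAS held over 5% of the gene, the study's limit for keeping a PAS, only with siStar-PAP. In the table of the double KD it held 4.27% in siCtrl and 1.61% with the double KD (adjusted p = 6.8e-09, Fisher's exact test). A PAS at chr11:18429762 had 24 of the siCtrl reads in that table and 0 with the double KD, which allows up to 0.0794% by the limit of 3 reads (adjusted p = 1.9e-09, Fisher's exact test). Batch 2 did not show the siStar-PAP direction of batch 1, with 34 of 37 reads in siCtrl and 59 of 79 with siStar-PAP (adjusted p = 0.178, Fisher's exact test). There, siStar-PAP had 6 reads at the main PAS of batch 1 and 9 at chr11:18429762, where siCtrl had 0 at both.

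PGK1 and PGAM1 also had PASs that passed the test. The last PAS of PGK1, 6102 nt after the main PAS and beyond the annotated end of the gene, held 3.41% of the PGK1 reads in siCtrl, 7.07% with siStar-PAP (adjusted p = 0.00046, Fisher's exact test), 4.25% with siPAPα and 2.06% with siPAPγ, and it was not listed in the other tables. That last PAS held over 5% of the gene only with siStar-PAP. Its siStar-PAP shift was thus measured at a site that passed the study's limit only through the library where it was high. The main PAS of PGK1 held 87.9% in siCtrl, 91.9% with siPAPα and 91.7% with siPAPγ, and both of these KD values passed the test. A PAS of PGK1 at chrX:77382446, between these sites, held 8.70% in siCtrl and 3.85% with siPAPα (adjusted p = 1.6e-07, Fisher's exact test). The PASs listed for the double KD include neither this site nor the last PAS. Among them the main PAS held 97.5% in the same siCtrl library and 97.3% with the double KD (adjusted p = 0.958, Fisher's exact test), so these shares depend on which PASs are listed. The main PAS of PGAM1 held 61 of 78 reads in siCtrl (78.2%) and 272 of 296 with siPAPα (91.9%, adjusted p = 0.00513, Fisher's exact test), the 1 enzyme PAS with a shift of over 10 percentage points that passed. The 78 siCtrl reads include 5 at chr10:99192440 and 4 at chr10:99193272, PASs with 0 reads in siStar-PAP, siPAPα and siPAPγ. These PASs held over 5% of the gene, the study's limit for keeping a PAS, only in siCtrl. The shift without them was not tested. An intronic PAS of PGAM1 had 4 reads in siCtrl, 14 with siStar-PAP, 1 with siPAPα and 18 with siPAPγ. HK2 had 1 PAS with enough reads for a test, in siPAPα, and it was not called.

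**Figure D4:**
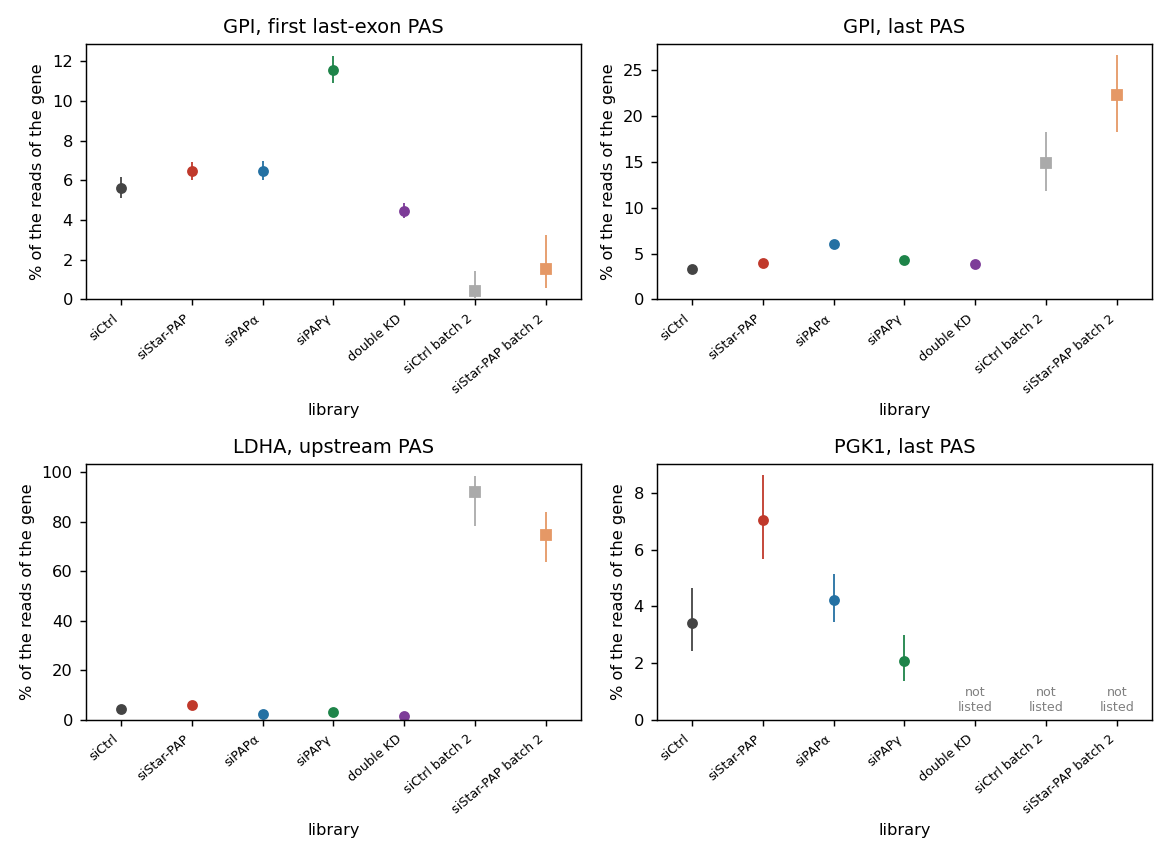
Share of the reads of GPI, LDHA and PGK1 at 4 PASs in each library, as a percentage of the reads of the gene, with exact binomial 95% intervals and axes of different range. GPI ends at its first last-exon PAS in 11.6% of reads in siPAPγ, PGK1 at its last PAS in 7.07% with siStar-PAP, and LDHA at its upstream PAS in 91.9% and 74.7% in batch 2 against at most 6.10% elsewhere.

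The other enzymes of the pathway and its surroundings were taken as lists. Of 22 other glycolysis enzymes and isozymes, 10 were tested over both batches with edgeR, of which 1 fell and 0 rose, and their median log2 difference was -0.18. That gene was ENO2, the neuronal enolase, with 1150 reads in siCtrl and 251 with siStar-PAP of batch 1 and 223 and 25 in batch 2 (log2 -2.43 ± 0.37, edgeR adjusted p = 0.00155). By PASS totals, ENO2 was also more than 2-fold below siCtrl in siPAPα (log2 -1.29), siPAPγ (-1.42) and the double KD (-1.28). Ratios of all genes lie higher with TMM factors in these comparisons, and the 2-fold calls of ENO2 were not repeated with them.

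Among the enzymes just before and after those measured, PKM, the pyruvate kinase that stands in the tables under the older symbol PKM2, was at 182 RPM in siCtrl, 229 with siStar-PAP, 201 with siPAPα, 228 with siPAPγ and 205 with the double KD. In batch 2 it was at 994 RPM in siCtrl and 780 with siStar-PAP, so that it resembled ENO1 in its level but had the opposite direction there. PFKL, a subunit of phosphofructokinase, had 440 reads in siCtrl, 204 with siStar-PAP, 450 with siPAPα, 239 with siPAPγ and 287 with the double KD. By PASS totals this is more than 2-fold lower in all 4, and these calls were not repeated with TMM factors, with which ratios lie higher. PFKL had 103 and 53 reads in batch 2 (edgeR log2 -0.85 over both batches, adjusted p = 0.282). PFKM (edgeR log2 -0.11), PFKP (-0.15) and HK1 (-0.22) did not pass the test, and ALDOC had at most 19 reads in a library. By PASS totals HK1 was more than 2-fold below siCtrl in siStar-PAP of batch 1 (log2 -1.01), siPAPγ (-1.05) and the double KD (-1.29). It was at -0.64 with siPAPα, and had 9 and 9 reads in batch 2. These calls of HK1 were not repeated with TMM factors either.

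Over 13 tested genes of glucose and lactate transport and control, 1 fell and 0 rose, with a median of -0.34. It was SLC16A3, the lactate exporter MCT4, with 65 and 0 reads in batch 1 and 21 and 2 in batch 2 (edgeR adjusted p = 0.0444). Of 10 targets of HIF1A outside glycolysis, 1 fell, DDIT4, an inhibitor of mTORC1 signalling (65 and 13 reads, 162 and 40 reads, edgeR log2 -1.90 ± 0.45, adjusted p = 0.0256), and the median was 0.18. The 8 pentose phosphate enzymes had a median of 0.66. The calls of SLC16A3 and DDIT4 were lost with PASS totals, at adjusted p = 0.081 and 0.0519 in edgeR. Without the batch block, SLC16A3, DDIT4 and ENO2 did not pass (edgeR adjusted p = 0.9997 for each).

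By the 2-fold rule, all genes were more often below siCtrl than above it with PASS totals, an imbalance that was smaller or turned round with TMM as given above. The counts of the lists, by PASS totals, stand beside those shares. Of the other glycolysis enzymes with over 50 reads, 5 of 10 were lower in siStar-PAP (26.2% of all genes), 3 of 10 with siPAPα (22.1%), 3 of 9 with siPAPγ (20.7%) and 4 of 9 with the double KD (26.5%), and 1 was higher, in siPAPγ. For transport and control, the counts were 4 of 10, 6 of 12, 4 of 11 and 7 of 11, with 0 higher in each. The 4 of siStar-PAP leave out SLC16A3, 1 of those 10, which had 65 siCtrl reads and 0 with siStar-PAP and so no finite log2 ratio. The shares of all genes do count such genes as lower. The medians of the other glycolysis enzymes, -0.97, -0.53, -0.48 and -0.67, lay below those of all genes in each of the 4, and those of the 8 enzymes with over 50 reads above. In siStar-PAP of batch 2, where 11.7% of all genes were lower and their median was -0.16, 2 of 7 other glycolysis enzymes were lower and 0 higher, with a median of -0.35. Of the 8 genes of transport and control there, 1 was lower and 2 were higher, with a median of -0.21.

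Over the 5 comparisons, the genes nearest to 3 of the enzymes were found among 1198 genes with at least 200 reads in every library, by the Euclidean distance between their log2 ratios, each taken from the median of all genes. Nearest to GAPDH were ARMC10 (0.27), ATPAF1 (0.28) and FUCA2 (0.32). Those nearest to ENO1 were PRPF4B (0.22) and C8orf59 (0.26), and to PGK1 they were PSMA3 (0.24), MED24 (0.29) and FSCN1 (0.30). None of these was a glycolysis enzyme, and 4 of the 5 comparisons share a siCtrl library.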

How the data were processed

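Human HEK293 cells were profiled by 3′READS, which sequences the 3′ ends of poly(A)+ RNA. The authors deposited raw counts of reads per PAS in 3 tables (siCtrl with 3 KDs, siCtrl with the double KD, and batch 2), and the siCtrl column of the second table comes from the library of the first. Per the labels and the study's methods, reads were mapped to hg19 with bowtie2, and uniquely mapped reads with untemplated Ts were taken as PASS reads. Neighbouring cleavage sites were clustered, and PASs with few reads or a small share of the reads of their gene were removed. This filter was set per table, so minor PASs differ between tables.

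Sense counts were summed per gene by symbol (PKM under PKM2 and TIGAR under C12orf5, both matched by gene ID) and scaled by the PASS totals that the study gives. All 7 libraries were mapped from their labels, and 0 columns were left without a sample. RPM ratios have exact 95% intervals. siStar-PAP was tested over both batches with edgeR 4.0.16 (R 4.3.3), TMM factors, a filter on low counts, and the replicate number, which the labels give as the batch, as a block; p-values were adjusted over all genes by Benjamini-Hochberg. The numbers pair the samples, whose deviations from their group means correlated at r = 0.871 across 11878 genes. The study speaks of replicate samples of cells and of batches, and the sources used here do not say that they were separate cultures, so p-values may measure technical spread only. PAS use was tested for PASs with at least 10 reads in a comparison with Fisher's exact test in scipy 1.17.1. Sequences were read from the hg19 (GRCh37) genome with pysam 0.24.0 and annotated with GENCODE. Other tools were Python 3.11.15, numpy 2.4.6, pandas 2.3.3, matplotlib 3.10.9 and, as an alternative, DESeq2 1.42.0. The tests were run on simulated reads with known changes. The spread of those reads was fixed in advance or came from counting alone. These runs therefore check the code and not the error rates on the real libraries.

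Genes named were the measured enzymes, the list genes that passed the edgeR test, the isozymes and neighbouring steps PKM, PFKL, PFKM, PFKP, HK1 and ALDOC, and the 3 genes nearest to GAPDH, PGK1 and ENO1. Single results that this rule named, among the pentose phosphate enzymes and the genes nearest to ENO1, are not reported here. The enzymes and lists were chosen with earlier results of these data known. Alternatives were other scalings, no block, no filter, DESeq2, leaving out a replicate, other fold limits and other PAS filters.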

Additional observations from a re-analysis of the deposited data

Results flagged for a closer look

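In siStar-PAP, 5 enzymes had opposite directions against siCtrl in the batches by PASS totals, and the differences between batches were not tested. Batch 2 minus batch 1, in log2 ratio to siCtrl, was 3.11 for HK2 (15 and 5 reads in batch 1, 3 and 5 in batch 2), -0.17 for GPI, 0.73 for TPI1, 0.59 for PGK1 and 0.62 for LDHB. With TMM factors, GPI, TPI1, PGK1 and LDHB were above 0 in both batches.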

How the results depend on the processing

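With the totals of the deposited tables in place of PASS totals, the summed RPM of the enzymes was 7376 in siCtrl, 9061 with siStar-PAP, 8469 with siPAPα, 7844 with siPAPγ and 7847 with the double KD, and 9661 and 13950 in siCtrl and siStar-PAP of batch 2. Enzymes over 2-fold without the minimum of reads were 1 with siStar-PAP, 1 with siPAPγ, 1 with the double KD and 2 in batch 2, and in siPAPα there were 2 with TMM factors, 1 with DESeq2 factors, 1 centred on the median gene and 3 over 1.5-fold. Without the replicate block, the edgeR fit over both batches called 0 genes lower and 0 higher, with 54 at an unadjusted p below 0.05, and ENO2, SLC16A3 and DDIT4 lost their calls (each adjusted p = 0.9997). PASS totals gave 74 genes lower and 16 higher, an enzyme median of 0.098, and values of -0.065 for TPI1, -0.14 for PGK1 and -0.0078 for PKM. DESeq2 called 83 genes lower, 199 higher and 1 enzyme, and no filter on low counts gave 232 lower and 212 higher. SLC16A3 also lost its call with RLE factors (edgeR adjusted p = 0.058). The enzyme median was 0.48 to 0.69 with either batch left out, which leaves no residual degrees of freedom and so no test. Without replicate 1 and without replicate 2, HK2 was at 1.17 and -1.65, PKM at -0.17 and 0.80, PFKM at 0.15 and -0.36, PFKP at 0.26 and -0.46, and HK1 at 0.43 and -0.54. An alternative chosen after seeing the data, with only the PASs listed in both tables, put PFKP at 0.22. With a minimum of 10 percentage points, enzyme PASs called were 0 with siStar-PAP, 1 with siPAPα, 0 with siPAPγ, 0 with the double KD and 0 in batch 2, and with only PASs over 5% of their gene they were 2 of 7 with siPAPγ, 2 of 4 with the double KD and 2 of 8 in batch 2, beside 38.8%, 50.9% and 14.9% of all such PASs. For single genes, 119 other values kept their direction and, where there was a test, their side of the threshold. The values with a replicate left out have no test and were judged by direction only. Beyond the settings' own construction (fewer reads, fewer samples, another total), the cause of these differences was not tested. HK2, PGAM1 and, in batch 2, LDHA had too few reads for small differences to be seen.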

Other observations

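The tables list an antisense PAS, classed as upstream of a transcription start, for HK2 and for PGK1. The site near HK2, at chr2:75059782 on the minus strand of hg19, had 53 reads in siCtrl and 20 with siStar-PAP of batch 2 (10.5 and 4.71 RPM), and 0, 0, 2 and 1 reads in siCtrl, siStar-PAP, siPAPα and siPAPγ of batch 1. The site near PGK1, at chrX:77359124 on the minus strand and within the GENCODE span of that gene, had 34 reads in siCtrl and 10 with siStar-PAP of batch 2 (6.73 and 2.35 RPM). HK2 itself had 3 and 5 sense reads in these libraries, fewer than its antisense site.

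The median of the pentose phosphate enzymes lay above that of all genes by PASS totals. Over 8 genes with over 50 reads, their median log2 ratio to siCtrl was 0.26 with siStar-PAP, 0.25 with siPAPα, 0.13 with siPAPγ and 0.24 with the double KD, beside -0.45, -0.26, -0.33 and -0.38 for all genes. Not all of them did. H6PD, at -2.10, -1.43, -1.40 and -2.43, was more than 2-fold lower in each. RPIA, at -0.50 with siPAPγ and -0.45 in the double KD, lay below the median gene there, and so did PGLS with siStar-PAP, at -0.89.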
